A study of Mus musculus with 16 samples.

Results

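The genes described here are 9 genes of the intestinal epithelium, Alpi, Ces2b, Sult1b1, Lypd8, Slc9a4, Prap1, Cyp3a13, Fam3b and Bco2, out of 24467 genes counted in each library. They were chosen by their own levels, because they were higher in the libraries gated on the red fluorescent protein mScarlet. Their height in those libraries is therefore a description and carries no test. RNA of sorted cancer cells was sequenced in bulk, and the cells came from orthotopic pancreatic tumours, which are tumours grown in the pancreas of host mice. All 16 libraries came from KPC 7TCF-eGFP/Porcn-DMA cells, a line of mouse pancreatic ductal adenocarcinoma (PDAC). The name of the line carries 7TCF-eGFP, a green fluorescent reporter driven by TCF binding sites that is read as WNT response, and Porcn-DMA, which the sources used here do not describe. Dissociated tumours were sorted into cells with neither reporter (DN), with GFP alone, with mScarlet alone and with both (DP), with 4 libraries from 4 mice in each group. No label says what mScarlet reports, although the series title names a WNT-secreting population. The sources used here do not give the strain or age of the host mice or say whether 1 mouse gave all 4 populations, and a single cell line underlies every group.

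Enterocytes are the absorptive cells of the gut. Their apical face, the brush border, carries enzymes and transporters, and their cytoplasm is rich in enzymes that modify lipids, hormones and foreign compounds. Transcription factors of the HNF4, CDX and GATA families hold this programme in the intestine. Pancreatic ductal tumours can switch on gastric and intestinal genes that the normal duct does not use. Among the 9 genes, Alpi encodes intestinal alkaline phosphatase, a brush border enzyme, and Lypd8 a surface protein that keeps bacteria away from the colonic epithelium. Slc9a4 encodes a sodium/proton exchanger. Ces2b (a carboxylesterase), Sult1b1 (a sulfotransferase) and Cyp3a13 (a cytochrome P450) act on drugs, hormones and lipids. Bco2 cleaves carotenoids, and Prap1 and Fam3b encode secreted proteins.

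Promoter windows for 6 of the 9 genes were found in a RefSeq table of assembly GRCm38.p6. Shown are the stretches with the HNF4 letters and the stretch with the GATA letters nearest a start. In each line below, read 5′ to 3′ on the strand of the gene, the capitals mark that match.
Alpi, 250 bases before the start, chr1:87101607-87101856, minus strand: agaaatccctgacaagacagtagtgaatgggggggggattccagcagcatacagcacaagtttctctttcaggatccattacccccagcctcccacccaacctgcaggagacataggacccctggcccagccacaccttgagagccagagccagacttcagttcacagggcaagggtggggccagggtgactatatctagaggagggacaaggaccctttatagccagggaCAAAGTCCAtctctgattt
Sult1b1, bases 16 to 45 after a second annotated start, chr5:87536178-87536207, minus strand: gtgagcaggcCAAAGTCCAttcctggtggc
Prap1, 250 bases before the start, chr7:140093146-140093395, plus strand: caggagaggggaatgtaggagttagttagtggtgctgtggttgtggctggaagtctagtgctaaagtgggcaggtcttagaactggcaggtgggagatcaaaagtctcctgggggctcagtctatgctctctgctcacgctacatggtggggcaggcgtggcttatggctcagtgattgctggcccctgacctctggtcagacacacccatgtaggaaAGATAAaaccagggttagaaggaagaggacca

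The letters CAAAGTCCA, a recognition sequence of HNF4, were searched on both strands from 250 bases before to 50 bases after each annotated start. They lay at positions -19 to -11 in Alpi and at 26 to 34 after the second start of Sult1b1, where 1 is the first transcribed base. They occurred in 0.475% of the 32851 windows of that length in the table, and in 2 of the 9 windows of these 6 genes. Their first letters CAAAGT, an HNF4 core, were in the same 2 windows and in 14.4% of all windows. The GATA letters AGATAA lay at -32 in Prap1 and at -202 on the opposite strand in the second window of Lypd8, and were in 11.2% of all windows. The TCF letters CTTTGAT, searched because the GFP reporter reads TCF, were in no window of these genes and in 3.73% of all windows. The related letters CTTTGAA lay at -153 on the opposite strand in Cyp3a13 and were in 5.14% of all windows. The CDX letters TTTATG were in no window of these genes and in 11.9% of all windows. The TATA letters TATAAA, on the opposite strand, were in windows of Alpi (-33) and Bco2 (-7) and in 13.6% of all windows. These are matches of letters, and binding was not measured.

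Total counts ran from 80647185 to 104273669 per library. Levels are given in CPM, that is, counts divided by a library total adjusted with the TMM factors of edgeR and brought to a common scale. All 9 genes passed edgeR's filter on low counts, under which 15963 genes were tested. A gene at 0 could have had up to 3 counts, or 0.0288 to 0.0372 CPM, and the lowest count of any of the 9 genes was 88, for Sult1b1 in DN library 1. Of the 10 epithelial and ductal markers, Krt19 stood at 8321 ± 1055 CPM (SD, n = 4) in DN and 12520 ± 3348 (SD, n = 4) in mScarlet. Epcam, which usually defines epithelial cells, was at or below 0.474 CPM in every DN, mScarlet and DP library and reached 28.98 in a GFP library. GFP library 1 held 22280 CPM of macrophage markers and GFP library 4 held 24690 CPM of acinar and 9308 CPM of fibroblast markers. In the other libraries these sums reached at most 5271, 2186 and 1732 CPM. In bulk libraries, fewer cells of a type and less RNA per cell cannot be told apart.

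In all 9 genes the 8 mScarlet-gated libraries lay above the 8 others, which the choice of the genes sets. Over all genes tested, 0.908% had this separation. Prap1, at 620 bases of exon, had the highest level per length, with a mean of 507 CPM per kb in mScarlet. Lypd8 followed at 58.8 and Cyp3a13 at 42.2 CPM per kb, and Ces2b at 4.97 and Sult1b1 at 4.58 were the lowest.

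**Figure D1:**
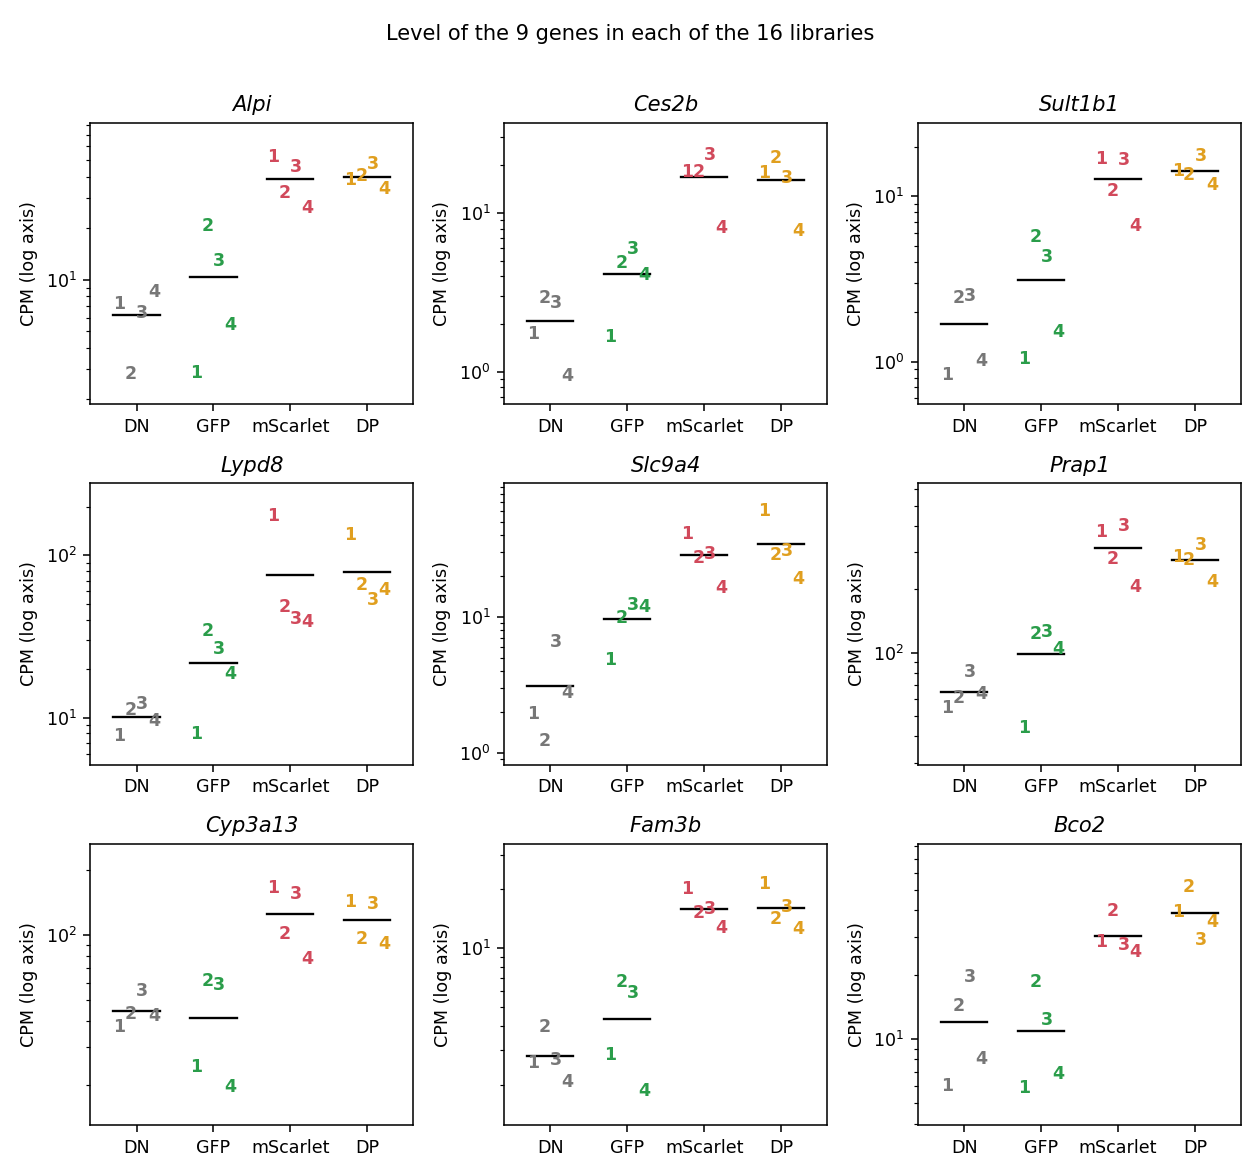
Level of each of the 9 genes in CPM on a log axis, by sorted group. Each digit is a library by its replicate number and each bar the mean of 4 libraries. The 8 libraries gated on mScarlet lie above the 8 others in every panel, as the choice of the genes sets, and GFP libraries 2 and 3 lie above GFP library 1 in all 9.

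Of the surface genes, Alpi (chromosome 1, 87098002 to 87101606 on GRCm38) was at 7.23, 2.82, 6.38 and 8.47 CPM in DN libraries 1 to 4 and at 2.87, 20.5, 12.8 and 5.45 in GFP. It was at 51.7, 32.3, 45.4 and 26.3 CPM in mScarlet and at 38.4, 40.2, 47.2 and 33.7 in DP. The closest approach was between GFP library 2 and mScarlet library 4, while 2 GFP libraries lay within the range of the DN libraries and 2 above it. Alpi was 6.25 times its DN mean in mScarlet and 3.83 times its GFP mean in DP.

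Lypd8 (chromosome 11, 58379032 to 58390541) was at 7.71, 11.2, 12.1 and 9.52 CPM in DN and at 7.97, 34.0, 26.7 and 18.7 in GFP. It was at 174.2, 48.0, 40.8 and 38.7 CPM in mScarlet and at 134.1, 65.4, 53.4 and 61.3 in DP. Library 1 stood far above the other 3 in both gated groups, and without mScarlet library 1 the log2 fold change in mScarlet vs DN fell from 2.90 to 2.05. GFP libraries 2, 3 and 4 lay above all DN libraries and GFP library 1 lay among them.

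Slc9a4 (chromosome 1, 40579986 to 40630731), the ion exchanger, was at 1.94, 1.23, 6.47 and 2.76 CPM in DN and at 4.83, 9.77, 12.3 and 11.9 in GFP. It was at 40.9, 27.0, 29.1 and 16.3 CPM in mScarlet and at 59.8, 28.6, 30.2 and 19.1 in DP. It spanned the widest range of the 9, with the highest library 48.6 times the lowest, and 3 of 4 GFP libraries lay above all DN libraries. Of its 100-base exon windows, 15.3% occur letter for letter in transcripts of the gene models Gm37435 and Gm35801, so part of its reads could belong to those.

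Among the metabolic enzymes, Cyp3a13 (chromosome 5, 137892933 to 137925610) was at 37.2, 43.1, 54.6 and 42.1 CPM in DN and at 24.3, 61.2, 58.7 and 19.6 in GFP. It was at 165.8, 101.1, 154.9 and 77.3 CPM in mScarlet and at 142.6, 96.2, 139.8 and 90.8 in DP. The GFP libraries split into a pair above and a pair below all 4 DN libraries. Ces2b (chromosome 8) ranged from 0.943 to 2.94 CPM in DN and 1.67 to 5.94 in GFP, and from 8.13 to 23.3 in mScarlet and 7.74 to 22.4 in DP. Sult1b1 (chromosome 5, 87513327 to 87538195) ranged from 0.833 to 2.49 CPM in DN and 1.04 to 5.66 in GFP, and from 6.62 to 16.9 in mScarlet and 11.7 to 17.5 in DP. In mScarlet the lowest library of all 3 enzymes was library 4.

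Bco2 (chromosome 9, 50533087 to 50555214), the carotenoid enzyme, was at 6.01, 14.3, 19.5 and 8.05 CPM in DN and at 5.90, 18.4, 12.3 and 6.83 in GFP. It was at 28.4, 39.8, 27.7 and 25.7 CPM in mScarlet and at 39.3, 51.3, 29.1 and 35.2 in DP. DN and GFP overlapped fully, and the ratio of means was 2.54 for mScarlet to DN and 3.57 for DP to GFP. Bco2 shares 515 bases with the cytokine gene Il18 on the opposite strand. No source used here says whether reads were counted by strand, so reads of that stretch cannot be assigned.

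Of the genes of secreted proteins, Prap1 (chromosome 7, 140093396 to 140097203) was at 54.7, 61.1, 81.1 and 63.7 CPM in DN and at 44.1, 122.5, 125.2 and 104.0 in GFP. It was at 373.5, 278.1, 400.3 and 204.9 CPM in mScarlet and at 286.9, 276.0, 324.2 and 216.8 in DP. GFP library 1 was the lowest of all 16, and the other 3 GFP libraries lay between DN and the gated groups. Of its 100-base exon windows, 12.1% occur in transcripts of the neighbouring gene Fuom. Fam3b (chromosome 16, 97470965 to 97504936) ranged from 2.08 to 3.95 CPM in DN and 1.87 to 6.72 in GFP, with 12.6 or more in mScarlet and 12.5 to 21.3 in DP, where library 1 was the highest.

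The fitted log2 fold change in mScarlet vs DN ran from 1.34 (SE 0.38) for Bco2 to 3.19 (SE 0.51) for Slc9a4 over the 9 genes. In DP vs GFP it ran from 1.48 (SE 0.28) for Prap1 to 2.18 (SE 0.50) for Sult1b1. The median was 2.64 and 1.85 respectively, against -0.003 and -0.037 over all genes tested. Over all genes, 5.03% had the 4 mScarlet libraries above the 4 DN libraries and 3.52% the 4 DP libraries above the 4 GFP libraries, and the 9 genes have both separations through their choice. The summed epithelial and ductal markers ran from 25950 to 28880 CPM in DN and from 29330 to 45390 in mScarlet, a ratio of means of 1.38, and from 16050 to 32020 in GFP and 28700 to 37560 in DP, a ratio of 1.244. Of the 10 edgeR called none in either comparison, and 2 higher in each with the block. The smallest ratio among the 9 genes was 2.54 in mScarlet to DN and 2.79 in DP to GFP. Since these genes were chosen for this height, their ratios cannot be weighed against those of the markers. The part of epithelial content in the levels of the 9 genes was not tested.

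The choice of the genes did not use the contrast across the GFP gate, so that contrast was tested. In GFP vs DN, edgeR's quasi-likelihood test with Benjamini-Hochberg adjustment over 15963 genes called none of the 9 genes, and 0% of all genes. At an unadjusted p under 0.05 it counted 4 of the 9 (Ces2b, Lypd8, Slc9a4 and Prap1) and 1551 genes, or 9.72% of all. DESeq2 called 294 genes and limma voom called 1, and edgeR with the replicate number as a block called none of the 9 and 0.0689% of all genes. The log2 fold change was above 0 for 7 of the 9, with a median of 0.74 against 0.02 over all genes. Slc9a4 had the largest difference, 1.64 (SE 0.48, 95% interval 0.70 to 2.59), with an adjusted p of 0.372 by edgeR. DESeq2 called Slc9a4, with an adjusted p of 0.0382, and across all alternatives its adjusted p ran up to 0.734.

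The remaining genes kept wide intervals in GFP vs DN. Lypd8 differed by 1.11 (0.11 to 2.10) with an edgeR adjusted p of 0.504, and Ces2b by 0.99 (0.11 to 1.87) with 0.503. Cyp3a13 differed by -0.11 (-0.77 to 0.55) and Bco2 by -0.14 (-0.88 to 0.60), with edgeR adjusted p of 0.955 and 0.946. For no gene did all 4 GFP libraries lie above all 4 DN libraries, a separation that 1.91% of all genes had. GFP library 1, with the highest macrophage sum and the lowest epithelial sum (16050 CPM), was the lowest GFP library in 7 of the 9 genes. GFP library 4, with the highest acinar sum, was the lowest GFP library for Cyp3a13 and Fam3b. A fit without these 2 libraries was added after the data were seen. It leaves out the lowest GFP library of every one of the 9 genes, so a higher GFP mean was set in advance. There the difference of all 9 genes was above 0, at 1.41 for Alpi, 0.42 for Cyp3a13 and 0.34 for Bco2. The edgeR adjusted p was 0.689 for Cyp3a13 and 0.837 for Bco2, and 0 genes were called. The part of the other cell types was not tested.

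Among mScarlet-gated cells no difference across the GFP gate was detected in these genes. In DP vs mScarlet edgeR called none of the 9 genes and 0% of all genes. It counted none of the 9 and 460 of all genes at an unadjusted p under 0.05, where DESeq2 called 68 genes and limma voom called 0. The log2 fold change ran from -0.19 (SE 0.28, 95% interval -0.73 to 0.35) for Prap1 to 0.35 (SE 0.38, -0.39 to 1.09) for Bco2, and every edgeR adjusted p was 1. The widest interval, that of Lypd8, reached from -0.92 to 1.04.

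The interaction, which asks whether the GFP difference was the same within and outside the mScarlet gate, was called for none of the 9 genes and for 0% of all genes by edgeR. At an unadjusted p under 0.05 it counted 0 of the 9 and 525 of all genes, where DESeq2 called 54 and limma voom 0. Its log2 value was below 0 for 7 of the 9 genes, from -1.36 for Slc9a4 to 0.49 for Bco2, all with an edgeR adjusted p of 1.0.

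**Figure D2:**
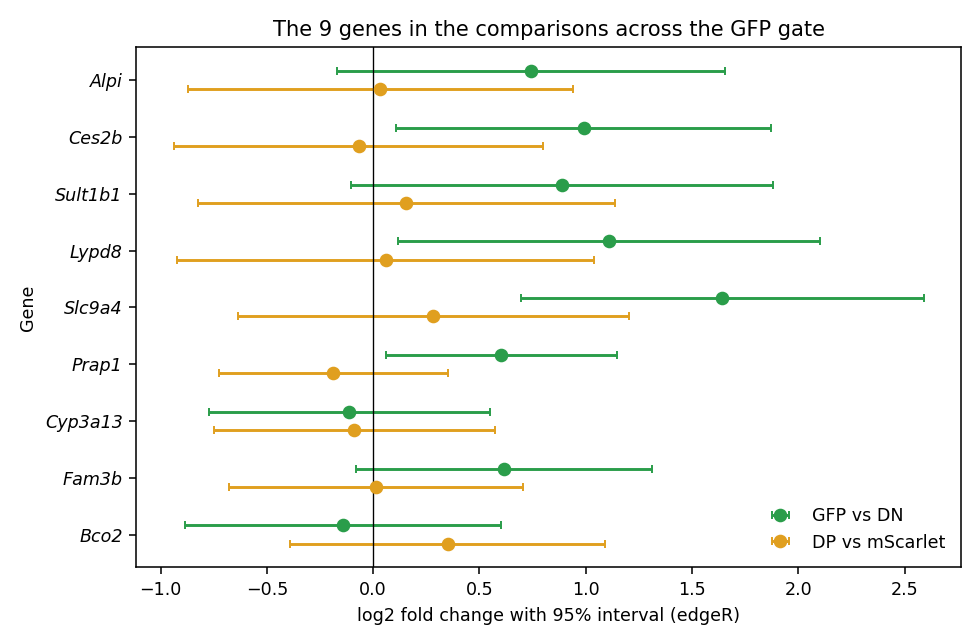
Fitted log2 fold change of each gene with its 95% interval across the GFP gate, outside the mScarlet gate (GFP vs DN, green) and within it (DP vs mScarlet, orange), 4 libraries a group. The GFP vs DN values run from -0.14 for Bco2 to 1.64 for Slc9a4 and the DP vs mScarlet values from -0.19 to 0.35.

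The 9 genes also varied together within groups. After subtracting each group's mean of log2(CPM + 1), all 36 pairs of the 9 genes had a positive correlation over the 16 libraries, from 0.30 to 0.90 with a median of 0.59. The pairs share library preparation, depth and the mixture of cells in each library, so these values are descriptions. In the mean over the 9 genes, GFP library 1 and mScarlet library 4 lay furthest below their groups and GFP library 2 furthest above. DP library 4 was the lowest of the DP group. Within GFP this mean was lower the higher the total count, which was 82118426, 84174839, 88002825 and 100358451 for libraries 2, 3, 4 and 1. DN had the same order, with totals from 88707082 (library 3) to 104273669 (library 1), and mScarlet and DP did not. The part of depth in these deviations was not tested.

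**Figure D3:**
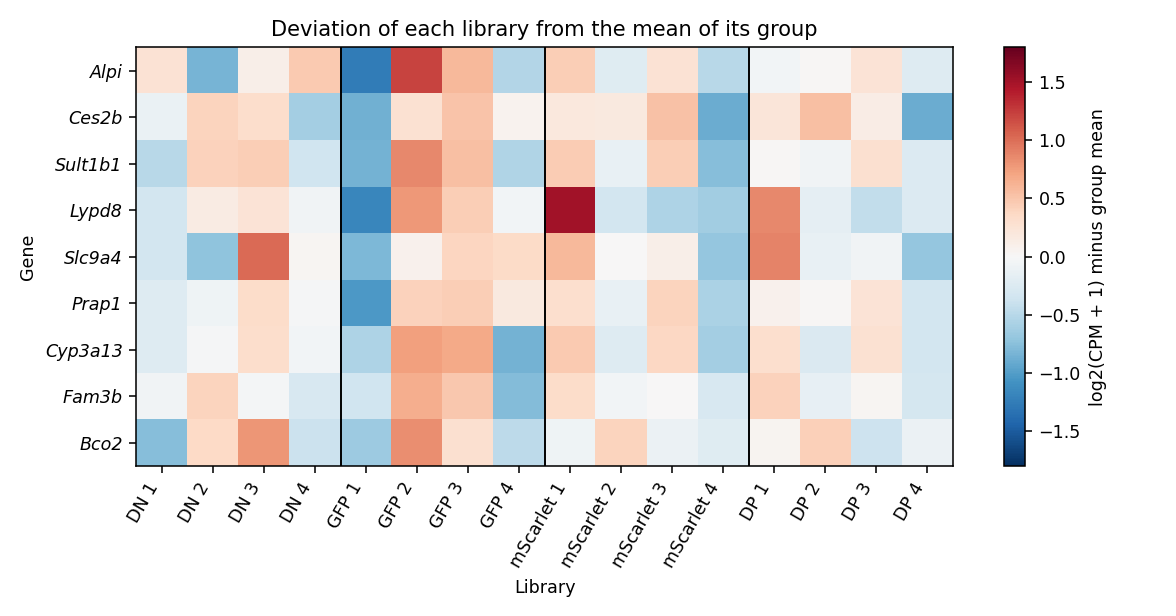
Deviation of each library from its group mean, in log2(CPM + 1), for the 9 genes (rows) over 16 libraries (columns), red above and blue below. GFP library 1 and mScarlet library 4 are below their group mean in all 9 genes, and GFP library 2 is above it in all 9.

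The genes whose profile over the 16 libraries was most like the mean of the 9, by Pearson correlation of standardised log2(CPM + 1) among genes with a mean of at least 10 CPM in a group, were Ckmt1 (r = 0.97), a mitochondrial creatine kinase, and Ces2c (0.97), a carboxylesterase. They were followed by Ces2d-ps, Eps8l3, Phgr1, Mcpt2, Syt16, Ms4a8a, Tff2 and Slc26a2 (0.95). Ckmt1 averaged 45.5 CPM in DN and 71.9 in GFP, against 146.3 in mScarlet and 155.2 in DP. By the deviations from group means the closest were Tff2 (0.94), a trefoil peptide of gastric mucus, then Ces2d-ps, Galnt4, Evpl, Smim6, Gcnt3, Galnt7, Adamts1, Ckmt1 and Twsg1 (0.91). Galnt4, Galnt7 and Gcnt3 encode enzymes that build mucin-type sugar chains. Ces2d-ps, Ckmt1 and Tff2 appear in both orders.

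Beyond the 9 genes, 96 further enterocyte genes were listed by role, of which 95 were in the files and 85 were tested. All gene lists were chosen with earlier results of these data known, so shares called in a list are descriptions and no independent test. In mScarlet vs DN edgeR called 1.18% of all genes, 0.482% higher and 0.695% lower. Of the 85 enterocyte genes 5 were called higher (5.88%) and 0 lower, with 24 higher and 5 lower at an unadjusted p under 0.05, which 14.2% of all genes reached. With the replicate number as a block, 16 were called higher (18.8%, against 2.52% of all genes) and 2 lower (2.35%, against 2.9%). The 2 lower were the apolipoprotein genes Apoa4 and Apoa1. DESeq2 called 11 higher and 3 lower, and limma voom 5 and 0. The median log2 fold change of the 85 was 0.81 and 64 were above 0, against a median of -0.003 and 49.7% above 0 over all genes. This median gives genes with few counts, such as Lct with 139 over all 16 libraries, the same weight as abundant ones. The transport genes had a median of 0.70, while their summed CPM had a ratio of means of 1.13 for mScarlet to DN. By role, 1 of 15 lipid and retinoid genes, 1 of 15 xenobiotic genes and 3 of 18 surface genes rose, and none of 19 brush border and digestion genes or of 18 transport genes was called. With the block these counts were 2, 5, 6, 3 and 0 in the same order. The fits without DN library 1, DN library 4 or mScarlet library 1 each tested 88 enterocyte genes and called 3 higher, and the fit without GFP library 1 called 8 of 88. Without GFP libraries 1 and 4 it was 10 of 90, and DESeq2 tested 95.

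Of the 5 genes that rose in mScarlet vs DN 3 were from the surface list. Rbp2, the retinol-binding protein of enterocytes, went from 55.1 ± 8.38 to 159.4 ± 56.1 CPM (SD, n = 4; edgeR log2 fold change 1.53, SE 0.25, adjusted p = 0.0112). Ces2c, a paralog of Ces2b, went from 14.4 ± 5.25 to 79.1 ± 22.4 CPM (2.46, SE 0.42, edgeR adjusted p = 0.0129). Phgr1, a small protein of the gut epithelium, went from 15.1 ± 4.95 to 64.6 ± 13.2 CPM (2.10, SE 0.32, edgeR adjusted p = 0.00712). Il18, the epithelial cytokine that overlaps Bco2, went from 17.5 ± 6.65 to 58.5 ± 6.46 CPM (1.74, SE 0.24, edgeR adjusted p = 0.00309), so reads of the shared bases touch both genes. Lgals4, a galectin of the gut surface, went from 795.0 ± 134.5 to 1637 ± 233.5 CPM (1.04, SE 0.24, edgeR adjusted p = 0.0479). Rbp2, Phgr1 and Il18 were called in all 16 fits that left out 1 library. The adjusted p of Ces2c reached 0.0592, its call being lost without DN library 1, DN library 4 or mScarlet library 1, and Lgals4 was called in 4 of the 16 fits with an adjusted p of up to 0.174. The call of Lgals4 held only without GFP library 1, 3 or 4 or mScarlet library 4.

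In DP vs GFP edgeR called 0.564% of all genes, 0.2% higher and 0.363% lower, and of the 85 enterocyte genes 3 higher (3.53%) and 0 lower. At an unadjusted p under 0.05 there were 21 higher and 5 lower, where 15.9% of all genes reached that p. With the block 18 were called higher (21.2%, against 2.13% of all genes) and 1, Apoa1, lower (1.18%, against 2.96%), and by role these 18 were 4 brush border, 1 lipid, 5 xenobiotic and 8 surface genes. Ces2c, Lgals4 and Phgr1 were among them, with edgeR adjusted p of 0.0261, 0.0170 and 0.0147. Without the block DESeq2 called 11 higher and 2 lower and limma voom 4 and 0. The median was 0.78 with 58 above 0, against -0.037 and 47.0% over all genes. Rbp2 (57.7 ± 11.2 to 139.4 ± 41.9 CPM, SD, n = 4) and Il18 (23.7 ± 4.41 to 57.1 ± 11.3) rose here too, by 1.27 (SE 0.24) and 1.27 (SE 0.23), with edgeR adjusted p of 0.0346 and 0.0327. Krt20, a keratin of differentiated gut epithelium, rose from 319.2 ± 136.6 to 775.5 ± 99.6 CPM (SD, n = 4; 1.28, SE 0.24, edgeR adjusted p = 0.0327), while in mScarlet vs DN its adjusted p was 0.0849. In fits that left out 1 library and tested 86 to 88 enterocyte genes, the count was 0 without DN library 4, GFP library 1, GFP library 4, DP library 1, DP library 2 or DP library 3, 5 without GFP library 2 and 6 without GFP library 3, and it was 0 without GFP libraries 1 and 4 together. The call of Rbp2 was lost also without DN library 2, and that of Il18 without mScarlet library 2 or DP library 4, with adjusted p of up to 0.141 and 0.125. Across the GFP gate edgeR called 0 of the 85, with 10 in GFP vs DN (8 higher, 2 lower) and 2 in DP vs mScarlet at an unadjusted p under 0.05. There DESeq2 called 1 and 0, and limma voom 0 and 0.

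**Figure D4:**
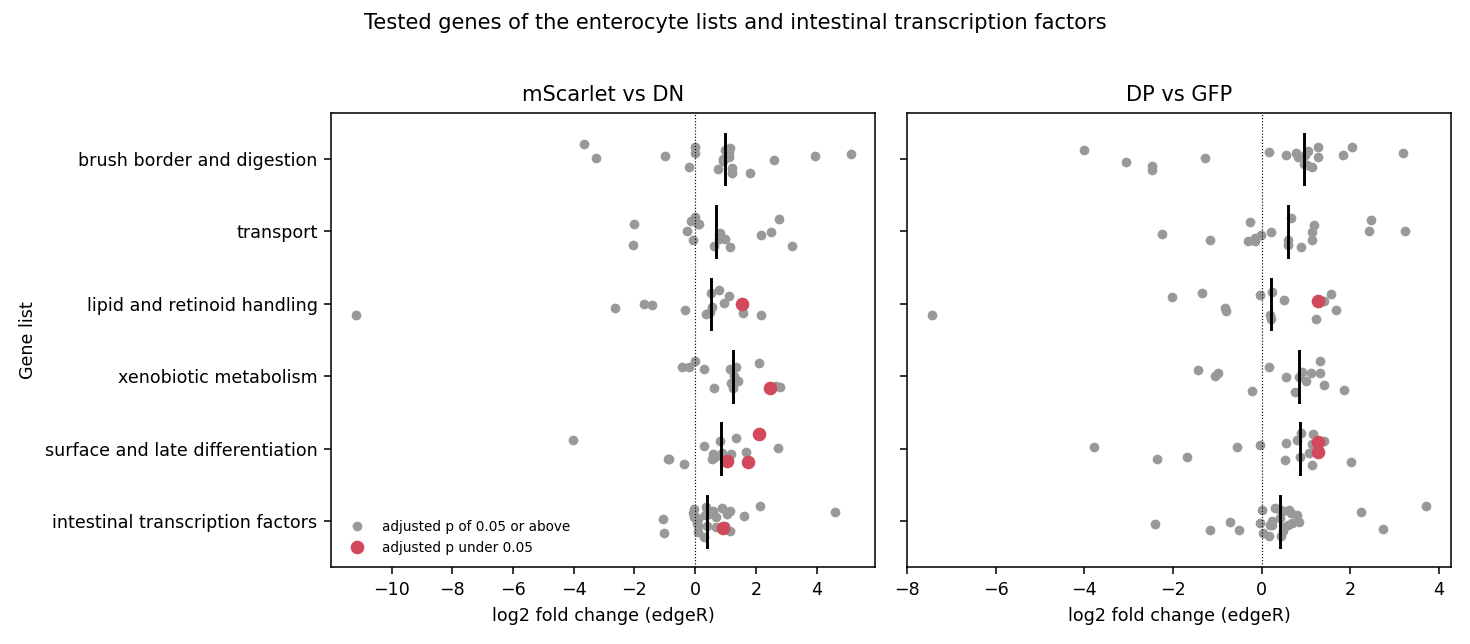
Log2 fold change of each tested gene of 5 enterocyte lists and the intestinal transcription factors, without the 9 genes, in mScarlet vs DN (left) and DP vs GFP (right). Red points have an edgeR adjusted p under 0.05, grey points do not, and black bars are list medians. The bars lie above 0 in every list, and the lowest grey point is Apoa4, which had 0 counts in mScarlet.

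Of 5 enterocyte genes followed whatever their values, Sis, Lct, Fabp2 and Apoa4 were low and Vil1 was not. The disaccharidase Sis had 93 counts in all 16 libraries together and the lactase gene Lct had 139. Fabp2, the intestinal fatty acid binding protein, averaged 1.90 CPM in DN and 1.10 in GFP, against 3.67 in mScarlet and 2.59 in DP. Apoa4, an apolipoprotein of fat-absorbing enterocytes, had 1306 counts over the DN libraries, 452 over GFP, 0 over mScarlet and 2 over DP, so it went the other way, with an edgeR adjusted p of 0.0831 in mScarlet vs DN and 0.0408 with the block. Vil1, the villin of the brush border core, averaged 120.1 CPM in DN and 109.9 in GFP, against 228.6 in mScarlet and 227.9 in DP, with edgeR adjusted p of 0.155 (mScarlet vs DN) and 0.0949 (DP vs GFP). With the block its edgeR adjusted p was 0.0224 and 0.0131.

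Of 27 tested intestinal transcription factors, edgeR called 1 in mScarlet vs DN and none (0) for DP vs GFP. At an unadjusted p under 0.05 these were 5 and 9, where 14.2% and 15.9% of all genes reached that p, and DESeq2 called 2 and 2 and limma voom 2 and 0. With the block edgeR called 3 and 1. The gene called without the block was Klf4, a factor of differentiating gut epithelium, at 27.3 ± 6.37 CPM in DN and 51.4 ± 4.55 in mScarlet (SD, n = 4; 0.91, SE 0.20, edgeR adjusted p = 0.0378). It was called in 7 of the 16 fits that left out 1 library, with an adjusted p of up to 0.130. The call was lost without DN library 1, 2 or 4, mScarlet library 1, 2 or 3 or DP library 1, 2 or 3. Hnf4a, whose recognition letters are in the Alpi and Sult1b1 windows shown above, averaged 171.8 CPM in DN and 139.5 in GFP, against 184.1 in mScarlet and 182.2 in DP (edgeR adjusted p = 0.921 and 0.471). Hnf4g averaged 1.602, 1.02, 3.54 and 4.84 CPM (edgeR adjusted p = 0.422 and 0.0916). Cdx2 stayed between 9.52 and 12.1 CPM in the group means. Gata4 averaged 43.1 CPM in DN and 69.0 in mScarlet and Gata6 40.0 and 41.8, and Isx averaged 1.29 and 5.67 with a single mScarlet library at 17.8. None of these 4 was called in either comparison.

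Paralogs of the 9 genes were listed as well. Of 26 that were tested, edgeR called 1 (Ces2c) in mScarlet vs DN and none (0) for DP vs GFP. At an unadjusted p under 0.05 there were 6 higher and 0 lower in mScarlet vs DN. In DP vs GFP there were 4 higher and 1 lower, where 14.2% and 15.9% of all genes reached that p in the 2 comparisons. DESeq2 called 4 and 2, limma voom 1 and 0, and edgeR with the block 4 and 4. Ces2g, with the most counts of the paralogs, averaged 442.9 CPM in DN and 472.3 in GFP, against 991.3 in mScarlet and 952.0 in DP (edgeR adjusted p = 0.274 and 0.317, and 0.0243 and 0.0366 with the block). Sult1c2 averaged 215.7, 229.9, 479.7 and 530.7 CPM (edgeR adjusted p = 0.138 and 0.109, and 0.0423 and 0.0342 with the block). Slc9a8, a widely expressed member of the exchanger family, averaged 52.7, 49.4, 53.3 and 50.6 CPM, and Fam3c averaged 41.8, 39.8, 47.2 and 56.5. Cyp3a11, the main Cyp3a gene of liver, had 17, 32, 10 and 47 counts over the 4 libraries of each group.

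Markers of other cell types moved beside the 9 genes. Of 8 goblet cell markers edgeR called 3 higher in mScarlet vs DN, the trefoil peptide Tff3, the chloride channel regulator Clca1 and the disulfide isomerase Agr2, and 2 in DP vs GFP, Clca1 and Agr2. With the block it called 5 and 4, Tff3 also in DP vs GFP (adjusted p = 0.0106), DESeq2 called 4 and 4, with 1 lower in DP vs GFP, and limma voom 1 and 0. The goblet sum ran from 58.0 to 166.1 CPM in DN and from 189.2 to 536.4 in mScarlet. It ran from 78.0 to 506.4 in GFP and from 218.2 to 483.7 in DP. Not all goblet markers rose, although the log2 fold change was above 0 for 7 of the 8 in both comparisons. Zg16 averaged 4.201 CPM in DN and 4.195 in mScarlet, and 115.3 in GFP and 0.794 in DP. Its highest GFP library was at 425.6 CPM. Muc2 had 116 counts in all 16 libraries together and 0 over mScarlet. Of 11 tested gastric surface markers 3 were called higher in mScarlet vs DN, Tff1, Tff2 and Ctse, and Ctse also in DP vs GFP. With the block edgeR called 4 and 3, Tff1 and Tff2 also in DP vs GFP (adjusted p = 0.00491 and 0.0261), DESeq2 4 and 3, and limma voom 3 and 1. Their sum ran from 974.8 to 1272 CPM in DN and 759.6 to 1555 in GFP, and from 2326 to 3826 in mScarlet and 2314 to 3051 in DP, so the gated groups did not overlap the others. The largest parts of this sum were Tff2 and Ctse, at 359.8 and 549.7 CPM in DN and 1287 and 1238 in mScarlet. The sum is therefore mainly a measure of these called genes. Of these goblet and gastric calls without the block none held in all 16 fits that left out 1 library. They held in 4 to 11 fits, with adjusted p of up to 0.152 for Clca1 in DP vs GFP, and each of those in mScarlet vs DN was lost without DN library 1, 2 or 4 or mScarlet library 1 or 3, and some also without DN library 3, GFP library 2, mScarlet library 2 or DP library 1, 2 or 3. Each of those in DP vs GFP was lost without DN library 2 or 4, GFP library 1 or 4, mScarlet library 2 or 3, or DP library 1, 2 or 3, and some also without DN library 3, GFP library 2, mScarlet library 4 or DP library 4. Their part in the levels of the 9 genes was not tested.

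The Paneth sum was at most 67.4 CPM in DN and 42.9 in mScarlet, 616.1 in GFP and 147.4 in DP, with Defa17 and Defa30 at 0 in all libraries, and the enteroendocrine sum was at most 2.44 CPM, with Neurod1 at 0. Hepatocyte markers summed to 8.32 to 90.8 CPM over all libraries. Fibroblast markers summed to 135.0 to 1438 CPM in DN and 17.5 to 88.3 in mScarlet, and 607.3 to 9308 in GFP and 26.9 to 271.2 in DP, with Pdgfrb called lower in mScarlet vs DN (edgeR adjusted p = 0.0339, up to 0.148 and not called without DN library 1 or 4, DP library 1 or any mScarlet library). Of 9 fibroblast markers edgeR called 1 lower in mScarlet vs DN and 0 in the other comparison, DP vs GFP, where 6 and 8 were lower at an unadjusted p under 0.05. With the block it called 3 and 4, among them Pdgfrb in DP vs GFP (adjusted p = 0.0170), DESeq2 called 5 and 6 and limma voom 0 and 0. The macrophage sum was 127.4 to 857.3 CPM in mScarlet and 1013 to 5271 in DP. Acinar markers summed to 61.8 to 811.8 CPM in DN and 294.5 to 24690 in GFP, with DP at 20.3 to 145.0 and mScarlet at 41.3 to 1183. The part of these cell types in the results was not tested.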

How the data were processed

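Each deposited file lists the authors' raw read counts, whole numbers by Entrez identifier and without normalization. Per the submitters' processing notes, GRCm38 (mm10), STAR and DESeq2 1.24.0 were used, without their roles. The read counter, the annotation and the use of strand were not given in the sources used here. Of 24467 genes, 24437 matched a RefSeq symbol (GRCm38.p6). The other 30, with 0.723% to 1.93% of the counts, were kept in the totals. Exon lengths came from GENCODE vM21, and groups from the sample titles.

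Counts were fitted with the quasi-likelihood test of edgeR 4.0.16 (R 4.3.3) over all 16 libraries, with group as the only term, filterByExpr by group, TMM scaling and a robust estimate of the spread. Calls are genes whose Benjamini-Hochberg adjusted p over 15963 genes was under 0.05. Intervals are the estimate ± 1.96 SE, where SE is the size of the log2 fold change over the root of F. The fit was also run on simulated data that had the same spread for every gene and no pairing or outlying libraries. That run cannot show how the fit behaves on these libraries. Alternatives were DESeq2 1.42.0, limma 3.58.1 voom, DESeq2 size factors, no filter, a replicate block, only the 8 libraries compared, unscaled CPM, and leaving out each library. Added after seeing the data were a fit without GFP libraries 1 and 4 and a fit without the robust estimate.

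The 9 genes and all gene lists were chosen with earlier results of these data known. Named were the 9 genes, genes of each list called in mScarlet vs DN or DP vs GFP (up to 6 a list), 7 transcription factors (1 of them not reported here) and 5 enterocyte genes whatever their values, the most abundant paralog of each of the 9, genes overlapping them, and the 10 most alike by each measure. Slc9a8, Cyp3a11, Krt19, Epcam, Apoa1, Zg16, Muc2, Alpl, Lypd6b and Bco1 were named after their values were seen. The numbers in the sample titles were checked for pairing. Deviations from the group means correlated by 0.13 to 0.61 in the 16 same-numbered pairs of groups compared, all over 0.1, against -0.40 to 0.20 in 72 pairs of unlike number. The lowest of all 24 same-numbered pairs was 0.092, for GFP and mScarlet library 4, groups not compared. The libraries were therefore taken as paired by number, although no label says what a number stands for. The fit without the block gives the values printed, and values with it (called the block) stand beside those it changed. The intervals and the fits that leave out libraries have no block, so they do not use the pairing. Replicate pairs differed by a chi-square per degree of freedom of at least 97.96, so every library was used as a replicate of its own. The floor of 3 counts covers counting error only, since there are no molecular identifiers.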

Additional observations from a re-analysis of the deposited data

Results flagged for a closer look

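Lypd8 was at 174.2 CPM in mScarlet library 1, where the other 3 libraries of that group lay between 38.7 and 48.0 CPM. It was at 134.1 CPM in DP library 1, where the other 3 lay between 53.4 and 65.4. The gap to the nearest library was 0.931 and 0.851 of the range of the group, above Dixon's 95% critical value for 4 values. Of 36 sets of 4 libraries (9 genes in 4 groups) these 2 passed that limit, and chance passes about 1 in 20. Slc9a4 was also highest in library 1 in both groups, at 40.9 and 59.8 CPM, within the limit.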

How the results depend on the processing

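For the 9 genes, every alternative kept the log2 fold change above 0 in mScarlet vs DN (1.10 to 3.82) and DP vs GFP (0.98 to 2.64), which their choice sets, and unscaled CPM moved none of the 36 group means by more than 1 SD. Counts of called genes depended on the fit. In mScarlet vs DN, where 188 genes were called, DESeq2 called 903, the 8 libraries alone 343, and the fit without GFP libraries 1 and 4 called 580. Leaving out 1 library gave 17 (without DN library 1) to 362 (without GFP library 1). In DP vs GFP, where 90 were called, DESeq2's size factors gave 137, DESeq2 1099, the 8 libraries alone 1, and the fit without GFP libraries 1 and 4 gave 1. Leaving out 1 library gave 1 to 297 there, with 1 without GFP library 1 or DP library 1, 2 or 3. In GFP vs DN, where 0 were called, DESeq2 called 294 and limma voom 1, and leaving out 1 library gave 0 to 2. In DP vs mScarlet, also with 0, DESeq2 called 68, no filter gave 1, and leaving out 1 library gave 0 to 1. DESeq2 called 54 in the interaction. The other enterocyte genes called higher numbered 5 in mScarlet vs DN, with 11 by DESeq2, 8 over the 8 libraries, 10 without GFP libraries 1 and 4 and 3 to 8 with 1 library left out. They numbered 3 in DP vs GFP, with 11, 0 and 0 by the same 3 fits and 0 to 6 with 1 library left out. Fewer samples enter the fits that leave libraries out, and otherwise the cause was not tested.

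With the replicate block, edgeR called 11 genes in GFP vs DN, 865 in mScarlet vs DN and 813 for DP vs GFP. Of the other enterocyte genes it called 16 and 18 higher and 2 and 1 lower in the last 2. None of the 9 genes was called across the GFP gate with the block, and among the calls the report gives it changed only those printed there with the block.

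Signs of small differences turned. Without GFP libraries 1 and 4, GFP vs DN was 0.42 for Cyp3a13 and 0.34 for Bco2, and the interaction of Cyp3a13 was -0.50. With 1 library left out, GFP vs DN ran from -0.40 to 0.10 for Cyp3a13 and from -0.54 to 0.19 for Bco2, and the interaction of Cyp3a13 from -0.18 to 0.31. DP vs mScarlet then ran from -0.12 to 0.20 for Alpi, -0.30 to 0.16 for Ces2b, -0.062 to 0.32 for Sult1b1, -0.33 to 0.88 for Lypd8, -0.12 to 0.51 for Slc9a4, -0.27 to 0.073 for Cyp3a13 and -0.15 to 0.14 for Fam3b. None of these values was past the threshold, and the cause was not tested.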
